A study of Rattus norvegicus with 6 samples.

Results

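Integrins are cell surface receptors built from an alpha and a beta chain, and laminins are basement membrane proteins built from an alpha, a beta and a gamma chain. Itgb2 pairs with Itgal, Itgam and Itgad on leukocytes, Itgb7 pairs with Itga4 and Itgae on lymphocytes, and Itgb4 pairs with Itga6 in the hemidesmosomes that fix an epithelium to its laminin. Itgb1 pairs with many alpha chains in most cell types. The integrin and laminin rows of the table were taken by symbol, without use of their values, and 26 of its 17030 symbols (17557 rows) are described. They comprised 7 leukocyte integrin chains, 13 other integrin chains and 6 laminin chains, each on a single row. Of these, 21 had a mean of at least 1 FPKM (fragments mapped to a gene, normalised to its length and to the library) over the 6 tumors and entered the tests, namely 6 leukocyte integrins, 11 other integrins and 4 laminins. Itgax, Itga2, Itga3, Itga9, Itgav, Lama2, Lama3, Lama4, Lamb1 and Lamb4 were not analysed here.

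The libraries came from subcutaneous PAIII tumors, a transplantable rat prostate carcinoma line, in Lobund-Wistar rats that were 2 months old when the cells were injected into the flank. Rats A1, A6 and A12 received digitoxin, a cardiac glycoside that inhibits the sodium pump, at 0.03 mg/kg by daily intraperitoneal injection from day 10. Rats B5, B9 and B14 received the vehicle alone, and all tumors were taken on day 40. The treated rats were picked for low and the control rats for high serum levels of 2 inflammatory cytokines, so that choice and the drug cannot be told apart. Each library held RNA pooled from several small punches of 1 tumor, taken from viable tissue, and therefore host cells as well as PAIII cells.

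The libraries fell apart by their lung alveolar mRNA, with A12 and B14 on one side, and this split crossed the labelled groups. The summed FPKM of 8 lung alveolar markers was 40.8 in A12 and 62.6 in B14, against 27736 to 84532 in the other 4 libraries. Airway secretory markers summed to 2.31 and 1.51 FPKM against 20916 to 130820 FPKM. Both are genes of lung, which a tumor in the flank does not contain, and where this mRNA came from was not tested. Pan-leukocyte markers summed to 519 and 823 FPKM in A12 and B14 against 1691 to 2772, with 7 of 8 lower in both. Endothelial markers summed to 97.8 and 108 FPKM against 381 to 1510, with 7 of 8 lower in both, and fibroblast markers to 2778 and 3927 FPKM against 214 to 834, with 4 of 5 tested higher in both. Epithelial markers summed to 5359 and 4206 FPKM against 1422 to 4298, so these ranges overlapped. Of the prostate markers, Pbsn was listed at 0 in every library, and Hoxb13 did not exceed 0.0937 FPKM in any, whereas Fkbp5, which other tissues also express, ran from 23.3 to 67.3 FPKM. The part of these cell type markers in the results on integrins and laminins was not tested. In bulk tumor RNA, fewer cells of a type and less RNA per cell cannot be told apart.

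Leukocyte integrins formed 25.9 to 44.5% of the summed integrin FPKM in A1, A6, B5 and B9, but 5.80% in A12 and 9.82% in B14. Their sum was 167, 163 and 48.4 FPKM in A1, A6 and A12, and 125, 156 and 94.9 FPKM in B5, B9 and B14. The other integrins summed to 372, 203 and 786 FPKM in the digitoxin libraries and to 357, 446 and 871 FPKM in the vehicle libraries. The laminins summed to 210, 252 and 313 FPKM and to 142, 204 and 307 FPKM in the same order. A12 among the digitoxin libraries and B14 among the vehicle libraries were thus lowest in leukocyte integrin mRNA and highest in the mRNA of the other integrins and of laminins.

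**Figure D1:**
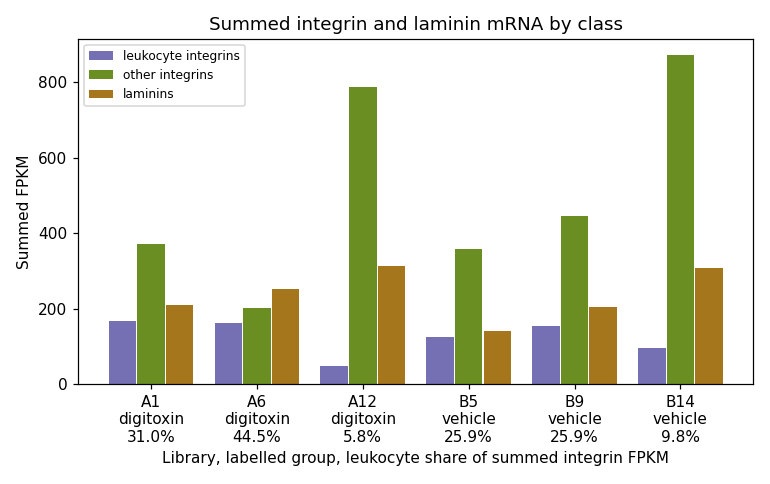
Bars give the summed FPKM of leukocyte integrins, other integrins and laminins in each of the 6 libraries, and the percentage under each library is the leukocyte share of its summed integrin FPKM. The share was 5.80% in A12 and 9.82% in B14 and at least 25.9% in the other 4 libraries.

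Among the 21 members tested, 6 were lower in both A12 and B14 than in all of the other 4 libraries (28.6%), and 10 were higher in both (47.6%). Over all 10749 rows tested, 29.3% were lower and 30.1% higher in this sense. With no filter on low values 9 of the 26 members were lower (34.6%) and 10 higher (38.5%), beside 21.5% and 20.2% of all 17557 rows. The filter itself bears on this split, since Itga11 passed it through A12 and B14 alone while Itgad, Itgb8 and Lamc3, lower in both, did not pass. By class, 4 of 6 leukocyte integrins were lower and 1 was higher. Of 11 other integrins, 1 was lower and 6 were higher, and of 4 laminins 1 was lower and 3 were higher. A12 and B14 are not a group of the study, and these counts are a description with no test.

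Itgb2, the beta chain shared by the leukocyte adhesion receptors, was the most abundant leukocyte integrin. It was 113, 112 and 19.4 FPKM in A1, A6 and A12, and 74.1, 90.3 and 42.4 FPKM in B5, B9 and B14. A12 and B14 were the lowest libraries, and the mean of the other 4 was 3.15-fold theirs. Itgal, its alpha chain on lymphocytes and other leukocytes, was 25.2, 14.2 and 3.80 FPKM with digitoxin and 15.3, 31.0 and 9.74 FPKM with vehicle. The same 2 libraries were lowest, by a factor of 3.16. The ratio of Itgb2 to Itgal ran from 2.91 to 7.87 over the libraries and did not separate A12 (5.10) and B14 (4.35) from the rest.

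Itgam, the alpha chain of the complement receptor of neutrophils and macrophages, went the other way. It was 8.88, 3.23 and 14.4 FPKM in A1, A6 and A12, and 12.3, 10.6 and 30.6 FPKM in B5, B9 and B14. A12 and B14 were the highest, at 2.57-fold the mean of the other 4. The ratio of Itgam to Itgal was 3.79 in A12 and 3.14 in B14 against 0.227 to 0.803 in the other libraries. C1qa, a complement gene expressed by macrophages, was also highest in A12 and B14 (275 and 435 FPKM against 72.3 to 236 FPKM). The ratio of Itgam to C1qa stayed between 0.0446 and 0.0833 in all 6 libraries. Most macrophage markers did not follow C1qa, since of 7 tested 2 (C1qa and C1qb) were higher in both A12 and B14 and 4 (Cd68, Csf1r, Mrc1 and Marco) were lower in both. The summed macrophage markers did not separate the libraries, at 788 and 1353 FPKM in A12 and B14 against 569 to 913 FPKM, and neutrophil markers summed to 1290 and 3289 FPKM against 10956 to 62405 FPKM. These ratios were picked after the values were seen.

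Of the lymphocyte chains, Itgb7 was 15.8, 26.2 and 8.22 FPKM in the digitoxin libraries and 18.9, 15.8 and 8.93 FPKM in the vehicle libraries. Itgae, which binds E-cadherin on epithelium, was 2.87, 4.74 and 1.92 FPKM, and 3.05, 3.53 and 1.88 FPKM, in the same order. Both were lowest in A12 and B14, with the other 4 libraries 2.24-fold and 1.86-fold higher on average. T cell markers summed to 14.4 and 20.5 FPKM in A12 and B14 against 38.7 to 69.0 FPKM, with 4 of 5 tested lower in both. Itga4, the chain that binds Vcam1 and fibronectin, was low throughout, at 0.946, 0.799 and 0.570 FPKM with digitoxin and 0.852, 1.89 and 1.31 FPKM with vehicle, and its ranges overlapped. Itgad, an alpha chain of tissue macrophages, had a mean under 1 FPKM and was not tested. It was 0.0358 FPKM in A12 and 0.142 FPKM in B14, and 0.389 to 2.39 FPKM in the other 4 libraries.

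**Figure D2:**
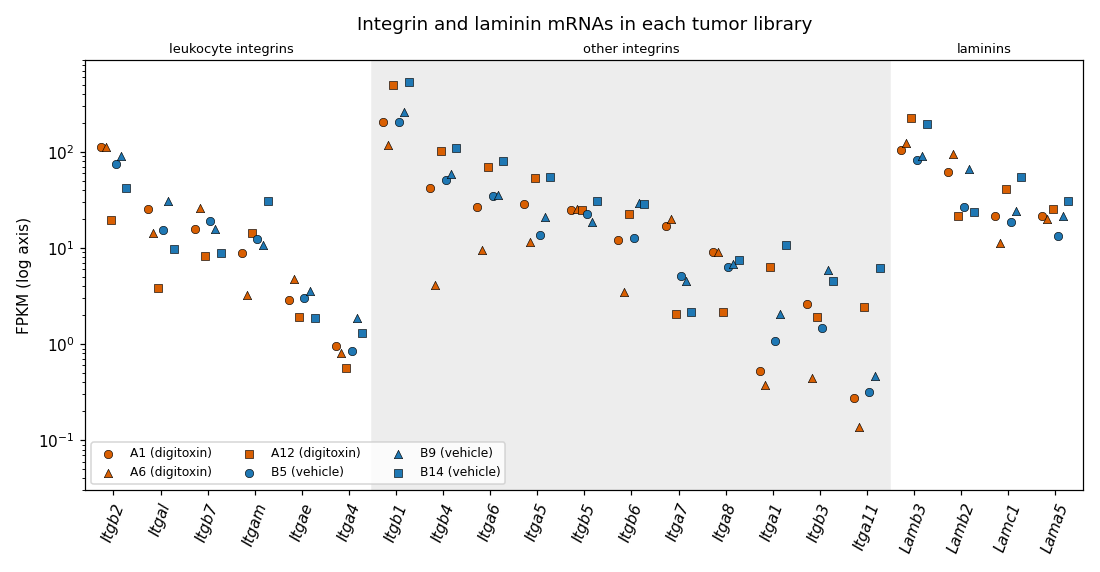
Each point is the FPKM (log axis) of 1 member in 1 library, for the 21 members with a mean of at least 1 FPKM, ordered by mean level within each class, with digitoxin libraries in orange and vehicle libraries in blue. A12 and B14 (squares) were the lowest libraries for Itgb2, Itgal, Itgb7 and Itgae and the highest for Itgb1, Itgb4, Itga6, Itga5 and Lamb3.

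The integrins of epithelium and stroma were led by Itgb1, which had the highest mean FPKM of all members. Itgb1 was 207, 119 and 498 FPKM in A1, A6 and A12, and 206, 262 and 536 FPKM in B5, B9 and B14. It made up 59.7% and 55.4% of the summed integrin FPKM in A12 and B14, and 32.6 to 43.6% in the other libraries. Its partner Itga5, the fibronectin receptor alpha chain, was 28.7, 11.6 and 53.3 FPKM with digitoxin and 13.7, 21.1 and 55.3 FPKM with vehicle. A12 and B14 were the highest for both chains, at 2.60-fold and 2.89-fold the mean of the other 4.

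The hemidesmosome pair moved together across the tumors. Itgb4 was 42.4, 4.10 and 103 FPKM in A1, A6 and A12, and 51.5, 58.9 and 109 FPKM in B5, B9 and B14. Itga6 was 26.8, 9.49 and 69.0 FPKM with digitoxin and 34.9, 35.4 and 80.1 FPKM with vehicle. Both were highest in A12 and B14, by factors of 2.70 and 2.80, and lowest in A6. The ratio of Itgb4 to Itga6 was 0.432 in A6 and lay between 1.36 and 1.67 in the other 5 libraries, so Itgb4 was the lower of the pair in A6. A6 also had the lowest epithelial marker sum (1422 FPKM) and the highest lung alveolar marker sum (84532 FPKM).

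Itga7, the laminin receptor alpha chain known from muscle, ran opposite to Itga6. It was 17.0, 19.9 and 2.08 FPKM in the digitoxin libraries and 5.11, 4.56 and 2.14 FPKM in the vehicle libraries. The other 4 libraries averaged 5.53-fold the level of A12 and B14, and A1 and A6 exceeded B5 and B9. Smooth muscle markers did not follow Itga7. They summed to 366 and 760 FPKM in A12 and B14 against 59.9 to 203 FPKM, with 3 of 5 tested higher in both and 0 lower. Skeletal muscle markers summed to 4.36 and 16.4 FPKM against 8.34 to 11.2 FPKM, so these ranges overlapped. The ratio of Itga6 to Itga7 was 33.2 in A12 and 37.5 in B14, between 6.84 and 7.77 in B5 and B9, and 1.57 and 0.477 in A1 and A6.

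The collagen receptor chains were low in most libraries. Itga1 was 0.521, 0.372 and 6.35 FPKM with digitoxin and 1.07, 2.04 and 10.7 FPKM with vehicle. Itga11, a chain of fibroblasts, was 0.276, 0.137 and 2.43 FPKM and 0.318, 0.465 and 6.13 FPKM in the same order. A12 and B14 exceeded the mean of the other 4 libraries by factors of 8.54 for Itga1 and 14.3 for Itga11, and the fibroblast marker sums were highest in these same 2 libraries. Itga10, the chain of cartilage, had a mean under 1 FPKM.

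The chains that bind fibronectin, vitronectin or latent TGF-beta by an RGD motif did not all follow the split. Itgb5 varied least, at 24.9, 25.3 and 24.8 FPKM with digitoxin and 22.8, 18.5 and 31.1 FPKM with vehicle. Itgb6, an epithelial chain that activates latent TGF-beta, was 12.2, 3.52 and 22.7 FPKM with digitoxin and 12.7, 29.5 and 28.4 FPKM with vehicle. B9 exceeded both A12 and B14 for Itgb6, and A6 was again the lowest. Itga8, a chain of smooth muscle and mesenchyme, was 9.07, 8.997 and 2.16 FPKM with digitoxin and 6.34, 6.84 and 7.42 FPKM with vehicle, so A12 alone was low. Itgb3, the chain of platelets and osteoclasts, ran from 0.445 FPKM in A6 to 5.92 FPKM in B9. Itgb8 was at most 0.478 FPKM and was listed at 0 in A12.

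Among the laminins, Lamb3 is the beta chain of the epithelial laminin that binds the Itga6 and Itgb4 receptor. It was 104, 124 and 226 FPKM in A1, A6 and A12, and 82.5, 91.5 and 197 FPKM in B5, B9 and B14. A12 and B14 were highest, at 2.10-fold the mean of the other 4 libraries. Unlike its receptor chains, Lamb3 was not lowest in A6, where it exceeded A1, B5 and B9.

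Lamb2, a beta chain of vascular, muscle and alveolar basement membranes, was lower in A12 and B14, the only one of the 4 laminins tested that was. It was 62.1, 94.4 and 21.4 FPKM with digitoxin and 26.9, 66.0 and 23.7 FPKM with vehicle, and the other 4 libraries averaged 2.76-fold the level of A12 and B14. The ratio of Lamb3 to Lamb2 was 10.5 and 8.32 in A12 and B14 and 1.32 to 3.06 in the other libraries.

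Lamc1, the gamma chain of most laminins, was 21.4, 11.3 and 40.9 FPKM with digitoxin and 18.7, 24.5 and 54.6 FPKM with vehicle, highest in A12 and B14 by a factor of 2.51. Lama5, the alpha chain of mature epithelial and vascular basement membrane, was 21.8, 20.1 and 25.7 FPKM with digitoxin and 13.4, 21.5 and 31.1 FPKM with vehicle. A12 and B14 exceeded the other libraries for Lama5 by a factor of 1.48 as deposited, but the ranges overlapped after median-of-ratios scaling. Lama1, an embryonic alpha chain, did not exceed 0.0312 FPKM. Lamc3 was 0.0207 and 0.0270 FPKM in A12 and B14 and 0.159 to 1.81 FPKM in the other libraries, with a mean under 1 FPKM.

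**Figure D3:**
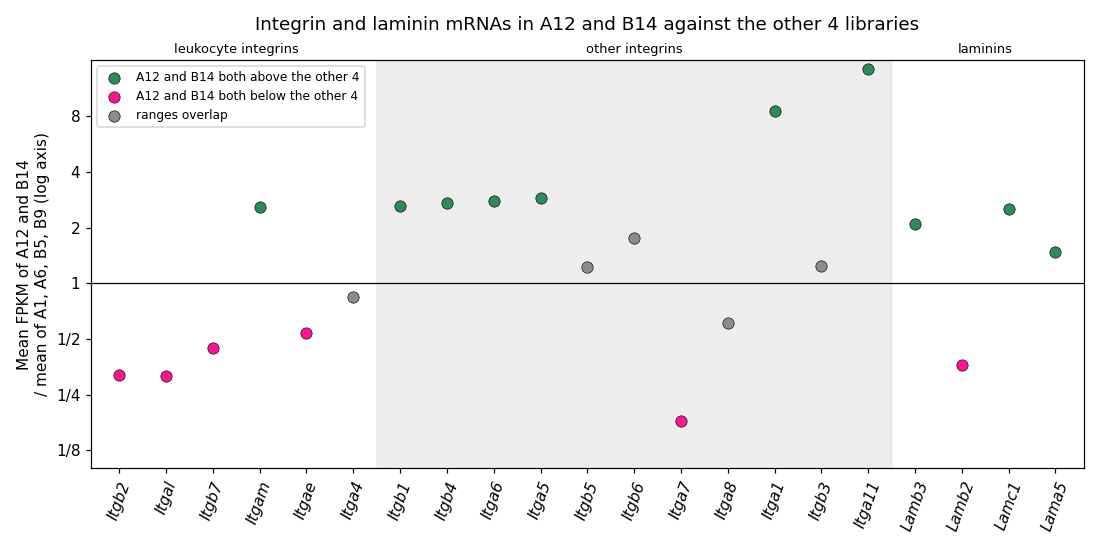
Each point is the mean FPKM of A12 and B14 divided by the mean of A1, A6, B5 and B9 (log axis) for 1 of the 21 members tested, coloured by whether both libraries lay above, below or within the range of the other 4. Leukocyte integrins except Itgam and Itga4 lay below, and Itga11 and Itga1, at 14.3 and 8.54, lay highest among the members plotted.

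Promoter sequence was looked up for the members, since several of them moved together. RefSeq (GRCr8) gave a promoter of 250 bases before to 50 after the gene start for 18 of the 26 members. The core motif of the RUNX factors of blood cells, TGTGGT on either strand, was in the promoters of all 4 leukocyte integrins that had one (Itgam, Itgb7, Itgae and Itga4), in no other member with a promoter, and in 17.3% of 33469 rat promoters of this length. Itgam, higher in A12 and B14, carried it, as did Itgb7 and Itgae, which were lower there. The windows of 60 bases that hold it are shown on the strand of the gene, with the motif or its reverse complement ACCACA in capitals.
Itgam (chr1:192089532-192089591, plus strand): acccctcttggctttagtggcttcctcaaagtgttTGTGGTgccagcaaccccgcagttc
Itgb7 (chr7:135239120-135239179, minus strand): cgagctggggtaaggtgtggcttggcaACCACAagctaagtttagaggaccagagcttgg
Itgae (chr10:58203260-58203319, plus strand): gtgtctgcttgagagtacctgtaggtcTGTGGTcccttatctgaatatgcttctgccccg
Itga4 (chr3:84569929-84569988, plus strand): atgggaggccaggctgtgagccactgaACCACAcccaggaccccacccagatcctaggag

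The GC box GGGCGG was in 9 of the 18 promoters, among them 6 of the 8 belonging to members that were higher in A12 and B14, and in 33.1% of all promoters. Of those 6 promoters, Lama5 (73% G and C), Itgb1 and Lamc1 (71.7% each), Itga11 (65.7%) and Itga5 (58.7%) lay above the median of all promoters, 51.7%, and Itgam (46.3%) below it, and the count was not adjusted for this. It is shown for Itgb1, Itga5 and Lamc1, which were higher in A12 and B14, with the motif or its reverse complement CCGCCC in capitals.
Itgb1 (chr19:73602210-73602269, plus strand): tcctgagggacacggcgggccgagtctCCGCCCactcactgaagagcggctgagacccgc
Itga5 (chr7:136381420-136381479, minus strand): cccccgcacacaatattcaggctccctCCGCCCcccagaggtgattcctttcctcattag
Lamc1 (chr13:68052069-68052128, minus strand): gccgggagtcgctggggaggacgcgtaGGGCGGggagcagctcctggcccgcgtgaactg
The core motif of the blood cell factor PU.1, GAGGAA, was in 9 of the 18 promoters, in 7 of the 8 belonging to members that were higher in A12 and B14 and in 2 of the 4 leukocyte integrins, beside 27.6% of all promoters. The motif TGANTCA, bound by Fos and Jun, was in 0 of the 18 promoters and in 7.33% of all promoters. In all 12 motifs were searched, and those named were chosen after the counts were seen. A match describes these letters and not a bound site.

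Digitoxin and vehicle libraries were then compared for every member in the fit over all 10749 rows. An earlier comparison of these libraries, not repeated here, found that their labels and a supplementary gene table of the study did not match closely, so each direction holds only for the libraries as labelled. At an adjusted p under 0.05, limma called 0 members and 0 rows (0% of rows). At an unadjusted p under 0.05 it gave 0 of 21 members and 36 rows, or 0.335%. Every digitoxin library was lower than every vehicle library for 0 members and for 3.26% of rows, and higher for 0 members and for 0.902% of rows. With 3 libraries in each group an exact permutation test cannot go below p = 0.10. With the replicate number as a block, limma again called 0 members and 0 rows, and the smallest adjusted p in limma was 0.638. In that fit 2 of 21 members (Itgam and Itga7) and 446 rows (4.15%) had an unadjusted p under 0.05.

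The fitted differences, on the log2(FPKM + 1) scale, had a median of -0.23 for the leukocyte integrins (4 lower and 2 higher with digitoxin), -0.49 for the other integrins (8 lower and 3 higher) and 0.21 for the laminins (1 lower and 3 higher). Over all rows the median was -0.16, with 6973 lower and 3776 higher, and median-of-ratios scaling moved it to 0.02. That scaling changed the sign of none of the 3 class medians, but moved the leukocyte median to -0.07 and the laminin median to 0.40. The leukocyte median turned to 0.25 without A12 and to 0.04 without B9, and the laminin median to -0.06 without B5. With no filter on low values the leukocyte median was -0.06. The median of the other integrins was -0.01 without B14, -0.99 without A12 and -0.83 with a pseudocount of 0.1 FPKM.

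Among leukocyte chains the largest difference was that of Itgam, at -0.97 ± 0.62 (SE; limma, adjusted p = 0.926). Itgal differed by -0.52 ± 0.72 (limma, adjusted p = 0.927), a difference that was 0.17 without A12 and -1.06 without A1. Itga4 differed by -0.39 ± 0.33 (limma, adjusted p = 0.926), or by -0.23 without B9. Itgb2 differed by -0.06 ± 0.73 (limma, adjusted p = 0.990), a sign that turned with median-of-ratios scaling. Without A6 the difference for Itgam was -0.46, and without B14 it was -0.53. For each of these chains the digitoxin and vehicle ranges overlapped.

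In the fit without a block, the epithelial chains had differences of similar size to their errors. With the replicate block the errors were smaller, at 0.66 for Itgb4, 0.55 for Itgb6, 0.36 for Itga6 and 0.30 for Itgb1, and limma still called none of them. The values that follow are from the fit without a block. Itgb4 differed by -1.30 ± 1.08, Itgb6 by -1.04 ± 0.67 and Itga6 by -0.79 ± 0.73 (limma, adjusted p = 0.926 for each). Itgb1 differed by -0.41 ± 0.61 (limma, adjusted p = 0.931). A6 was the lowest library for all 4, and without it the differences were -0.06 for Itgb4, -0.39 for Itgb6, -0.10 for Itga6 and 0.06 for Itgb1. Itga7, named after its values were seen, was 1.15 ± 0.79 higher with digitoxin (limma, adjusted p = 0.926), and 2.03 higher without A12 and 0.65 higher without A6.

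For the laminins, Lamb3 differed by 0.32 ± 0.45 (limma, adjusted p = 0.927) and Lama5 by 0.10 ± 0.35 (limma, adjusted p = 0.962). Neither difference was larger than its error in this fit. Lamb3 differed by 0.32 ± 0.21 with the replicate block and by 0.38 ± 0.19 with the lung alveolar marker level as a covariate, and limma called it in neither. The signs turned to -0.00586 for Lamb3 without A12 and to -0.20 for Lama5 without B5.

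Within A1, A6, B5 and B9, the leukocyte integrins had a median difference of -0.03, the other integrins of -0.56 and the laminins of 0.34, beside -0.24 over all rows. Between A12 and B14, with 1 library each and no test, the medians were -0.79, -0.31 and -0.21, beside -0.00991 over all rows. A12 was below B14 for 5 of 6 leukocyte integrins, 11 of 11 other integrins and 3 of 4 laminins, beside 5511 rows lower and 5092 higher of all 10749. Itgb2 was 0.45 higher with digitoxin within the 4 libraries and 1.09 lower in A12 than in B14, and Itgal differed by -0.20 and -1.16. Itgam had the same sign in both, at -0.94 and -1.03. Lung markers were not level between the groups within the 4 libraries. Alveolar markers summed to 51118 and 84532 FPKM in A1 and A6 and to 27736 and 35596 FPKM in B5 and B9. Airway secretory markers summed to 55433 and 130820 FPKM against 20916 and 22870 FPKM. The part of this lung mRNA in the differences within the 4 libraries was not tested.

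Itgb4 differed by -1.91 within the 4 libraries and by -0.08 between A12 and B14, and Itgb6 by -1.41 and -0.31. Itga7 was 1.74 ± 0.37 higher with digitoxin within the 4 libraries (limma, adjusted p = 0.392) and differed by -0.03 between A12 and B14. For 11 of the 21 members the digitoxin and vehicle values did not overlap within the 4 libraries, 6 lower and 5 higher with digitoxin. Over all rows 40% were lower and 17.2% higher in this sense, so the 52.4% of members without overlap lay below the 57.2% of rows. In that fit limma called 0 members and 2 rows (0.0186%) at an adjusted p under 0.05.

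**Figure D4:**
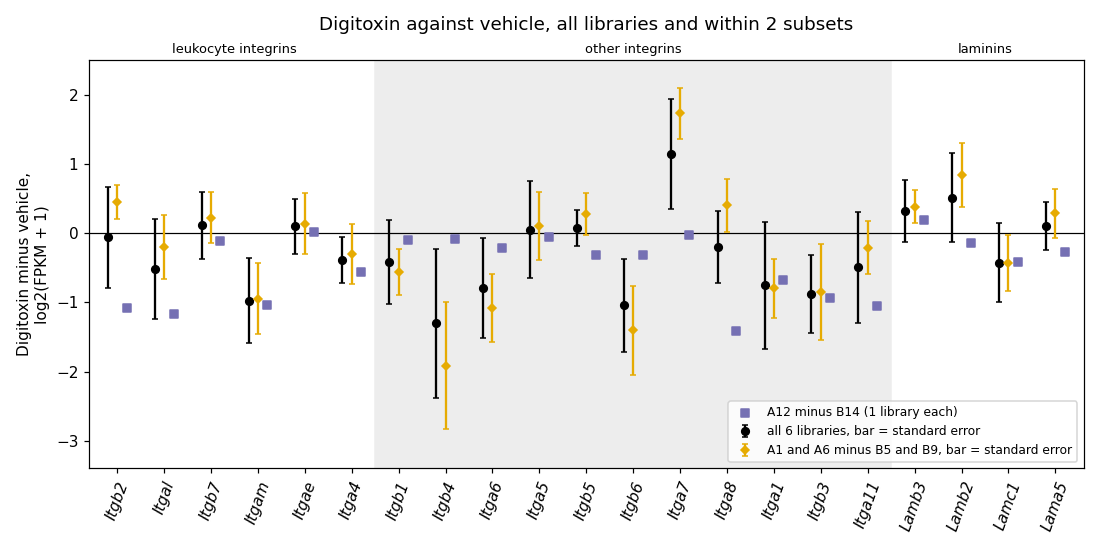
Points give the digitoxin minus vehicle difference in log2(FPKM + 1) for the 21 members tested, over all 6 libraries (black), within A1, A6, B5 and B9 (yellow) and between A12 and B14 with 1 library each (violet), and bars are standard errors of the limma fit. Itga7 had the highest difference over all libraries, at 1.15, and Itgb4 the lowest, at -1.30.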

How the data were processed

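RNA from 6 rat tumors, 1 library each, was sequenced as single reads. The authors made TruSeq libraries, which do not mark strand, and per the labels and the study's methods used CASAVA, FastQC, Bowtie2, TopHat2, Cufflinks and Cuffdiff. The deposited values are FPKM per gene, with no scaling between libraries stated. The submitters' processing notes name hg19 although the samples are rat, so no table position is printed. Summed FPKM ran from 651322 to 1025231 per library. The FPKM hold no read counts, so depth is unknown and no counting error is given, and a 0 is written as listed at 0. Every library column was matched to a sample by its label.

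Rows whose FPKM averaged 1 or more over the libraries were fitted with limma 3.58.1 in R 4.3.3 (lmFit, eBayes with trend) on log2(FPKM + 1), two-sided, with Benjamini-Hochberg adjustment over 10749 rows. Such differences understate the change of low genes. The fit code was run on simulated data with independent noise and large shifts, a setting unlike these libraries. That run checks the code and does not measure power here. Values are from Python 3.11.15, pandas 2.3.3, numpy 2.4.6 and matplotlib 3.10.9. Replicates are tumors of separate rats. A symbol that met the rule is not reported here and is in no count of members. Members, lists, tests and alternatives were chosen with earlier results of these data known. Fold changes were to be printed for a fixed set of members and any other with an unadjusted p under 0.05 or groups without overlap. For the other lists, values were to be given for at most the 3 genes with the highest mean FPKM.

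The alternatives were median-of-ratios scaling, a pseudocount of 0.1 FPKM, the replicate block, eBayes without trend, no filter, the lung alveolar marker level as a covariate, each library left out, and A1, A6, B5 and B9 alone. Deviations of same-numbered libraries from their group means correlated at r = 0.426, 0.606 and 0.869 across genes. A1 with B9 (0.644) and A6 with B5 (0.612) correlated more closely than A1 with B5 and A6 with B9. A12 and B14, the closest pair, also share the low lung alveolar mRNA. This measure therefore does not show that the numbers pair the samples, and the sources used here name no shared day.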

Additional observations from a re-analysis of the deposited data

How the results depend on the processing

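No alternative called a member at an adjusted p under 0.05, and the replicate block changed no call, with 0 members called in that fit. The count of members whose groups did not overlap, 0 in all 6 libraries, was 11 (52.4%, beside 57.2% of all rows) with A1, A6, B5 and B9 alone. It was 0 to 9 when a library was left out, the 9 (42.9%, beside 51% of all rows) without A12. An unadjusted p under 0.05 was found without A12 for 4 members and 19.7% of rows, and with the lung alveolar covariate for 2 members and 3.77% of rows. Itgb2 turned sign with median-of-ratios scaling (0.13) and with A1, A6, B5 and B9 alone (0.45). Leaving out each library gave median differences of -0.47 to 0.25 for leukocyte integrins, -0.99 to -0.01 for other integrins and -0.0561 to 0.313 for laminins. The same ranges were -1.39 to -0.46 for Itgam, -0.55 to -0.23 for Itga4, -2.24 to -0.06 for Itgb4, -1.47 to -0.10 for Itga6, -1.58 to -0.39 for Itgb6, 0.65 to 2.03 for Itga7, -1.06 to 0.17 for Itgal, -0.48 to 0.76 for Itgb2, -0.964 to 0.0631 for Itgb1, -0.20 to 0.38 for Lama5 and -0.00586 to 0.713 for Lamb3. Under the other settings 75 single-member values kept their sign and side of the threshold, and 2 (those of Itgb2) turned sign. Members outside the range of the other 4 libraries in A12 and B14 were 16 of 21, 15 with median-of-ratios scaling and 19 of 26 with no filter. Of all rows tested 29.3% were lower and 30.1% higher in this sense, and of all rows with no filter 21.5% and 20.2%. With the scaling 28.6% of members were lower and 42.9% higher, beside 29.4% and 31.9% of all rows tested. The unknown depth limits low members.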

Other observations

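Lists of integrin and laminin partners were read against all rows tested, of which 30.1% were higher and 29.3% lower in both A12 and B14 than in the other 4 libraries. Of 10 counter receptors and ligands tested, 4 were higher and 4 lower in this sense. Fn1, fibronectin, was 320, 81.0 and 337 FPKM in A1, A6 and A12, and 189, 167 and 461 FPKM in B5, B9 and B14, so A12 and B14 were highest. Icam1, the ligand of the Itgal and Itgb2 receptor, was 144, 233 and 39.0 FPKM with digitoxin and 59.9, 156 and 39.3 FPKM with vehicle, lowest in the same 2 libraries. Spp1, osteopontin, ran from 26.8 FPKM in A6 to 974 FPKM in B14 and overlapped. In the comparison of digitoxin with vehicle, 6 of the 10 were fitted lower with digitoxin and 4 higher, and limma called 0 of them, with 0 at an unadjusted p under 0.05.

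Of 5 other laminin receptors and partners tested, 1 was higher and 3 lower in both A12 and B14, beside the same 30.1% and 29.3% of all rows. Bcam, a laminin receptor of blood vessels and epithelium, was 378, 579 and 21.0 FPKM with digitoxin and 183, 296 and 22.0 FPKM with vehicle. Cd9, a tetraspanin that binds integrins, was 1449, 1329 and 1054 FPKM and 1518, 1276 and 939 FPKM. Both were lowest in A12 and B14.

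Of 16 integrin adaptors and activators tested, 7 were higher and 5 lower in both A12 and B14, beside 30.1% and 29.3% of all rows. The share that was lower was near that of all rows. Between digitoxin and vehicle limma called 0 of them (11 lower and 5 higher, 0 at an unadjusted p under 0.05). Rap1b, with the highest mean of this list, was 421 and 471 FPKM in A12 and B14 and 86.0 to 358 FPKM elsewhere. Ilk, a kinase-like adaptor of beta chains, was nearly level, at 105 to 123 FPKM in all 6 libraries. Zyx, of focal adhesions, was 258 and 231 FPKM in A12 and B14 and 120 to 134 FPKM elsewhere. Fermt3, the kindlin of blood cells, and Lims2 were chosen after their values were seen. Fermt3 was 10.9 and 23.1 FPKM in A12 and B14 against 30.9 to 60.0 FPKM, and Lims2 was 0.287 and 0.475 FPKM against 15.3 to 69.0 FPKM.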
